A study of Mus musculus with 6 samples.

Results

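The genes of the lipid droplet coat and of triglyceride breakdown were examined in mouse liver: the perilipins Plin2, Plin3, Plin4 and Plin5, the CIDE proteins Cidea, Cideb and Cidec, the lipase Pnpla2, its activator Abhd5 and its inhibitor G0s2. Every probe set annotated to exactly 1 of these 10 symbols was taken, which gave 14 of the 45101 probe sets on the array and 10 of 18193 named genes, a probe set being the group of short probes that reads out a transcript. Livers came from male BALB/c mice aged 10 weeks and were hybridised 1 sample per array to Affymetrix mouse expression arrays. In the isolated group (3 arrays), mice had lived singly for 30 days with less bedding, in cages kept in a foam box that cut social contact; the other group was control mice (3 arrays). The labels do not say whether control mice stayed in groups throughout. All mice arrived at 4 weeks of age and acclimatised for 10 days in cages of 5, with diet and water freely available. Neither the hour of sampling nor the feeding state at that hour is stated in the sources used here. The labels number the samples of a group but do not say that each came from its own mouse, so the p-values measure only the spread between these samples, which may be partly technical.

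Hepatocytes store triglyceride in droplets that perilipins coat. Perilipin 2 is the main coat protein of hepatocyte droplets, perilipin 3 also exists free in the cytosol, perilipin 4 is best known from white fat, and perilipin 5 marks tissues with active fatty acid oxidation and tethers droplets to mitochondria. Stored triglyceride is opened by adipose triglyceride lipase, the product of Pnpla2, which Abhd5 activates and the small protein G0S2 blocks. CIDE proteins pass lipid between droplets that touch and so enlarge them, and CIDEB also takes part in loading lipid onto secreted lipoproteins. In fasted liver, fatty acids released by lipolysis act as ligands of the nuclear receptor PPARalpha, and genes of the coat, Plin2 among them, are known targets of that receptor.

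Transcripts of the lipase inhibitor G0s2 and of the coat proteins Plin4 and Plin2 were lower in isolated livers, by 3.47-fold, 2.69-fold and 2.19-fold. The lipase Pnpla2 and its activator Abhd5 had log2 changes between -0.13 and -0.08 on their tested probe sets and were not called. Both Plin5 probe sets had lower means in isolated livers, and neither passed the test. Plin3, Cideb and Cidec were not called.

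The start regions of the 3 genes that passed the test are shown because these genes carry the result. Each window runs from 250 bases before to 50 bases after the annotated start (RefSeq, GRCm38.p6, minus strand for all 3 genes, printed 5′ to 3′). They lie at chr1:193273139-193273438 for G0s2, chr4:86670010-86670309 for Plin2 and chr17:56109733-56110032 for Plin4. Capitals mark the single motif match described after them.
G0s2: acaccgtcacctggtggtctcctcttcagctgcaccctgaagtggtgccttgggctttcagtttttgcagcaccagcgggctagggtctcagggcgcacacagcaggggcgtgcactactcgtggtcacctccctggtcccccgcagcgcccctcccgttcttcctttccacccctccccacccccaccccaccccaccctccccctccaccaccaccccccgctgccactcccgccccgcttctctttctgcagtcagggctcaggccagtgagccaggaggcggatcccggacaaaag
Plin2: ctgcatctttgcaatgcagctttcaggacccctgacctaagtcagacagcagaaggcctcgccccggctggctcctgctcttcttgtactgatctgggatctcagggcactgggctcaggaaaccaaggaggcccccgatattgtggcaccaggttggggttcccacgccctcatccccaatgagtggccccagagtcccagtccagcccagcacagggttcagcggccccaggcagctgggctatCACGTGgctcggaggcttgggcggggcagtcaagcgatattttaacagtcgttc
Plin4: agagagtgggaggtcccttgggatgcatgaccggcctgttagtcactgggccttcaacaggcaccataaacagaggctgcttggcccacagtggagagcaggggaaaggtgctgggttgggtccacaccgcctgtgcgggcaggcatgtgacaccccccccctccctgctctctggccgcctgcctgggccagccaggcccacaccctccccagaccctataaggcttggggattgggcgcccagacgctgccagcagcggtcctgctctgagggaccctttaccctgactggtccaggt

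A window was found for 9 of the 10 genes, all but Cidea, with 11 windows in all. Both strands were searched for 4 motifs: the PPAR element (AGGNCA repeated after a spacer of 1 base), the glucocorticoid response element (AGAACA and TGTTCT with 3 bases between them), the FOXO element GTAAACA and the E-box CACGTG. The only match in the 11 windows was the E-box of Plin2, which begins 4 bases before the start. An E-box was present in 7.15% of all 32851 windows of the same length, a FOXO element in 3.65%, a PPAR element in 0.381% and a glucocorticoid element in 0.00913%. A match describes letters in a window and is not a binding site. With shares this low, finding no PPAR or glucocorticoid element in 11 windows says little. Bases beyond the windows were not searched. Plin4 and Plin5 are next to each other among the coding genes of chromosome 17.

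Values are MAS5 signals, a linear brightness per probe set, and brightness cannot be set against that of another probe set. Of the 14 probe sets, 11 passed the filter on low values, which kept the upper 50% of probe sets by mean log2(signal + 2). The 11 cover 9 genes, all but Cidea. The change is the difference of group means of log2(signal + 2), isolated minus control, and a fold is that difference on the linear scale, which understates the change of dim probe sets. A probe set was called when its limma p, adjusted by Benjamini-Hochberg over all 22519 tested probe sets, was under 0.05. Over the whole array, 0.857% of tested probe sets were called lower and 0.773% higher. Of the 11 tested member probe sets, 3 were called lower and 0 higher by limma, and 5 were lower and 0 higher at an unadjusted p under 0.05, where 4.53% of all tested probe sets were lower and 6.89% higher. Both Plin5 probe sets are among these 5. The members were chosen with earlier results of these data known, so the counts are description beside the shares.

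**Figure D1:**
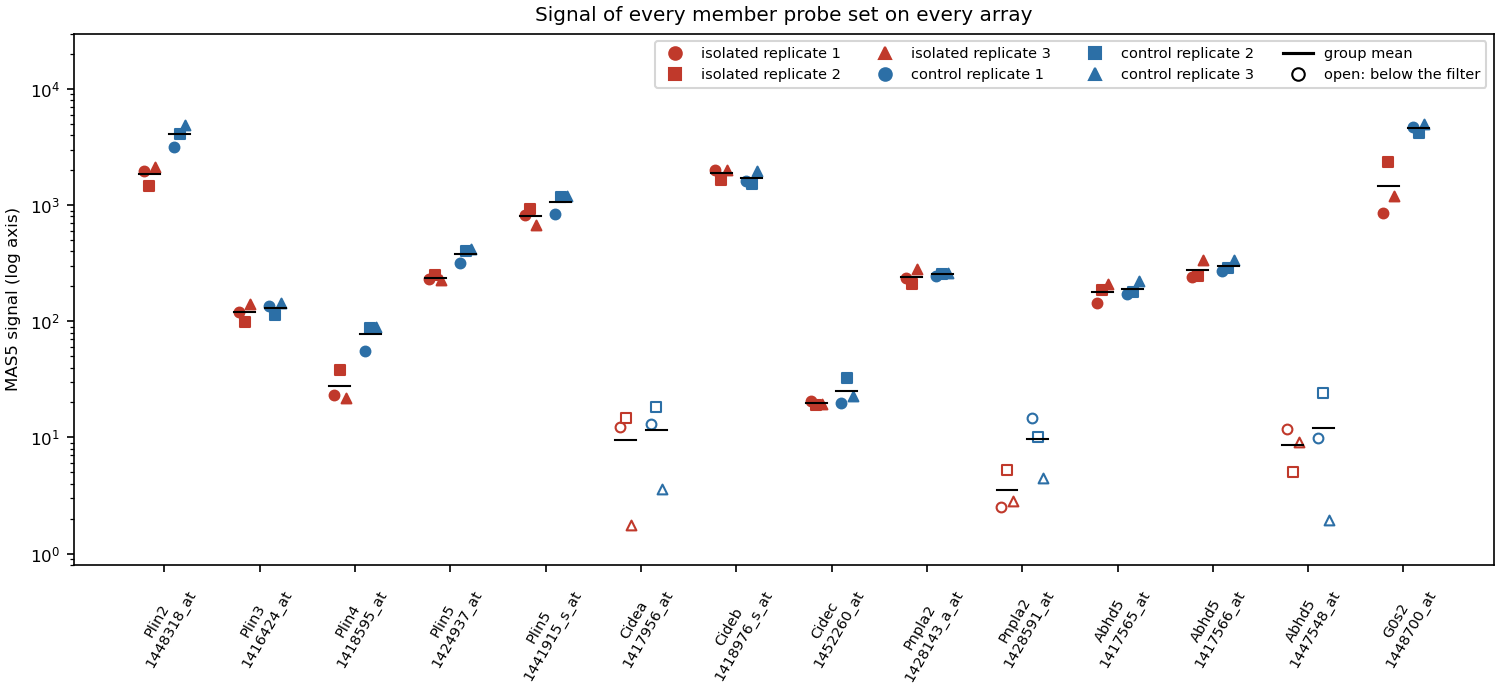
MAS5 signal (log axis) of the 14 member probe sets on each of the 6 arrays, with isolated arrays in red to the left of control arrays in blue; marker shapes give the replicate number, black lines the group means, and open markers the 3 probe sets below the filter. The G0s2, Plin2 and Plin4 signals of the isolated arrays lie below every control array.

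G0s2 (probe set 1448700_at), the inhibitor of the lipase, had signals of 850, 2337 and 1195 in isolated livers, against 4686, 4231 and 5021 in control livers. The groups did not overlap, and isolated replicate 2 stood closest to the controls. The mean was 1461 ± 778 in isolated livers and 4646 ± 396 in control livers (SD, n = 3 each). This is a log2 change of -1.79 ± 0.23 (SE), with a 95% interval of -2.27 to -1.32 and a limma adjusted p of 9.2e-05. Among all tested probe sets it ranked 38 by p-value. The call was lost with a robust variance trend (limma adjusted p 0.20) and without the intensity trend (0.104). The log2 change was -2.20 without isolated replicate 2.

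Of the perilipins, Plin2 and Plin4 were called. Plin2 (1448318_at), the main droplet coat of hepatocytes, had signals of 1973, 1473 and 2133 in isolated livers, against 3201, 4119 and 4916 in control livers. The groups did not overlap, and isolated replicate 2 held the lowest value. The mean was 1860 ± 344 in isolated livers and 4079 ± 858 in control livers (SD, n = 3 each). On the log2 scale the change was -1.13 ± 0.16 (SE), with a 95% interval of -1.47 to -0.79 and a limma adjusted p of 0.000362. This call was lost without the intensity trend (limma adjusted p 0.132). Because whole liver was measured, fewer cells of a type and less RNA per cell cannot be told apart.

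Plin4 (1418595_at), the perilipin best known from white fat, was dimmer, with signals of 23.3, 38.5 and 21.8 in isolated livers, against 56.0, 87.6 and 89.7 in control livers. The groups did not overlap, and isolated replicate 2 was again nearest to the controls. The mean was 27.9 ± 9.21 in isolated livers and 77.8 ± 18.9 in control livers (SD, n = 3 each). The log2 change was -1.43 ± 0.28 (SE), with a 95% interval of -2.0 to -0.86 and a limma adjusted p of 0.00695. The call was lost without control replicate 3 (limma adjusted p 0.0734), with no filter on low values (0.0621) and without the intensity trend (0.11).

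Plin5, the perilipin that binds Abhd5 and Pnpla2, has 2 probe sets. On 1424937_at it had signals of 233, 251 and 228 in isolated livers, against 319, 405 and 416 in control livers, with no overlap. Across all tested probe sets, 15.4% also had groups that did not overlap. The log2 change of 1424937_at was -0.67 ± 0.17 (SE), with a 95% interval of -1.02 to -0.31 and a limma adjusted p of 0.0547, just outside the threshold. It was called in 7 of 17 alternative analyses, among them quantile normalization (limma adjusted p 0.0314) and a robust trend (0.0330). The other Plin5 probe set, 1441915_s_at, carries the suffix that Affymetrix gives to probes shared by several transcripts, as does that of Cideb. On it the signals were 832, 924 and 681 in isolated livers, against 837, 1183 and 1190 in control livers. These groups overlapped, since isolated replicate 2 exceeded control replicate 1. The log2 change there was -0.39 ± 0.17 (SE), with a limma adjusted p of 0.364.

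Plin3 (1416424_at), the perilipin that also occurs free in the cytosol, had signals of 120, 99.5 and 140 in isolated livers, against 135, 112 and 145 in control livers. The groups overlapped almost fully. Its log2 change was -0.13, with a 95% interval of -0.54 to 0.28 and a limma adjusted p of 0.892.

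**Figure D2:**
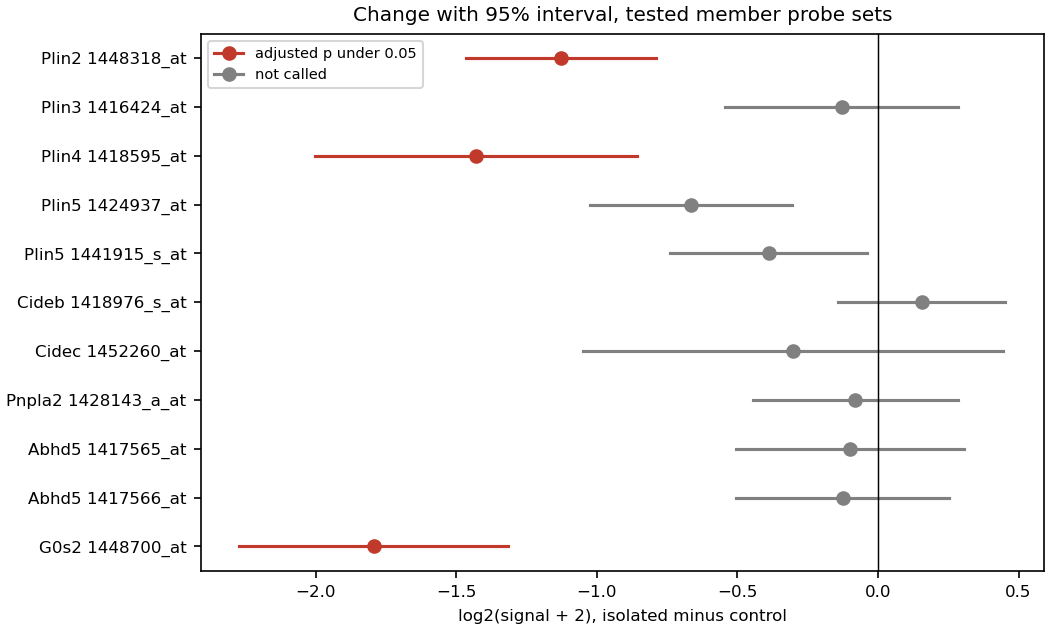
Difference of group means of log2(signal + 2), isolated minus control, for the 11 tested member probe sets, with 95% intervals from limma; red marks an adjusted p under 0.05. The intervals of Plin2, Plin4 and G0s2 lie below -0.7, while those of Plin3, Cideb, Cidec, Pnpla2 and Abhd5 include 0.

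None of the CIDE genes was called. Cideb (1418976_s_at), which acts on hepatocyte droplets and lipoprotein loading, had signals of 1998, 1663 and 2018 in isolated livers, against 1621, 1521 and 1969 in control livers. Its log2 change of 0.16, with a 95% interval of -0.14 to 0.45 and a limma adjusted p of 0.786, was the single positive one among the tested member probe sets. Cidec (1452260_at), the CIDE protein of fat cells that steatotic livers also make, had signals of 20.5, 19.0 and 19.5 in isolated livers, against 19.9, 32.8 and 22.9 in control livers. These values lie near the filter's floor, which corresponds to a signal of about 18.0. Control replicate 2 stood above the other 5 arrays, and the log2 change of -0.30 had a 95% interval of -1.05 to 0.45 (limma adjusted p 0.847). Cidea (1417956_at), known from brown fat, was below the filter and not tested, with signals of 12.3, 14.6 and 1.76 in isolated livers, against 13.1, 18.3 and 3.58 in control livers.

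Neither the lipase nor its activator was called. Pnpla2, which encodes the lipase itself, had signals on 1428143_a_at of 236, 211 and 281 in isolated livers, against 247, 255 and 263 in control livers. The isolated arrays lay on both sides of the controls. The log2 change was -0.08, with a 95% interval of -0.45 to 0.28 and a limma adjusted p of 0.933. Its other probe set, 1428591_at, was below the filter, with signals of 2.53, 5.26 and 2.85 in isolated livers, against 14.7, 10.0 and 4.50 in control livers, and was not tested.

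Abhd5, the coactivator, had signals on 1417566_at of 242, 247 and 339 in isolated livers, against 272, 287 and 338 in control livers. On 1417565_at they were 144, 185 and 209 in isolated livers, against 170, 180 and 224 in control livers. The groups overlapped on both probe sets. The log2 changes were -0.13 (95% interval -0.51 to 0.25) and -0.10 (-0.50 to 0.30), with limma adjusted p of 0.884 and 0.922. The remaining Abhd5 probe set, 1447548_at, was below the filter, with signals of 11.8, 5.04 and 9.08 in isolated livers, against 9.89, 24.03 and 1.95 in control livers.

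Ratios of bright members within an array hardly depend on how the array was scaled, while the added 2 moves those of the dim Plin4 and Cidec, and 8 ratios were compared by an exact two-sided permutation test, in which 3 arrays against 3 cannot give a p under 0.1. The log2 ratio of the inhibitor G0s2 to the lipase Pnpla2 was 1.84, 3.46 and 2.08 in isolated livers, against 4.23, 4.04 and 4.25 in control livers. The groups did not overlap. The difference of -1.71 had an exact permutation p of 0.1, the smallest possible, and a Benjamini-Hochberg value of 0.133 over the 8 ratios. Pnpla2 itself changed by -0.08 log2 units, so this ratio mostly repeats the G0s2 change of -1.79 and is not a separate result. The log2 ratio of the activator Abhd5 to Pnpla2 averaged 0.18 ± 0.12 in isolated livers and 0.22 ± 0.12 in control livers (SD, n = 3 each), with an exact permutation p of 0.6.

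Within the coat, the log2 ratio of Plin3 to Plin2 was higher by 1.00 in isolated livers, that of Plin5 to Plin2 by 0.74, that of Cideb to Plin2 by 1.28 and that of Cidec to Plin2 by 0.83. In each of these 4 the groups did not overlap, with an exact permutation p of 0.1. All 4 share Plin2, which was itself called lower, as denominator, so they are not separate results. The Plin5 to Plin2 difference was 0.48 without isolated replicate 2. The log2 ratio of Plin4 to Plin2 was -6.29, -5.19 and -6.48 in isolated livers, against -5.79, -5.52 and -5.74 in control livers, a difference of -0.30, and the groups overlapped (exact permutation p 0.5). That difference was -0.70 without isolated replicate 2, with no overlap (exact permutation p 0.1), -0.15 without isolated replicate 1 and -0.053 without isolated replicate 3, and with a pseudocount of 16 it was 0.027. Among the isolated arrays, replicate 2 was highest for G0s2, Plin4 and both Plin5 probe sets, and lowest for Plin2, Plin3, Cideb, Cidec and Pnpla2 1428143_a_at. It was also the dimmest isolated array, with a median signal of 18.4, against 19.4 for replicate 1 and 21.9 for replicate 3. The main fit added no normalization between arrays. For the log2 ratio of Plin4 to Pnpla2 the isolated minus control difference was -1.35, again without overlap (exact permutation p 0.1). That ratio mostly repeats the Plin4 change of -1.43, since Pnpla2 changed by -0.08.

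**Figure D3:**
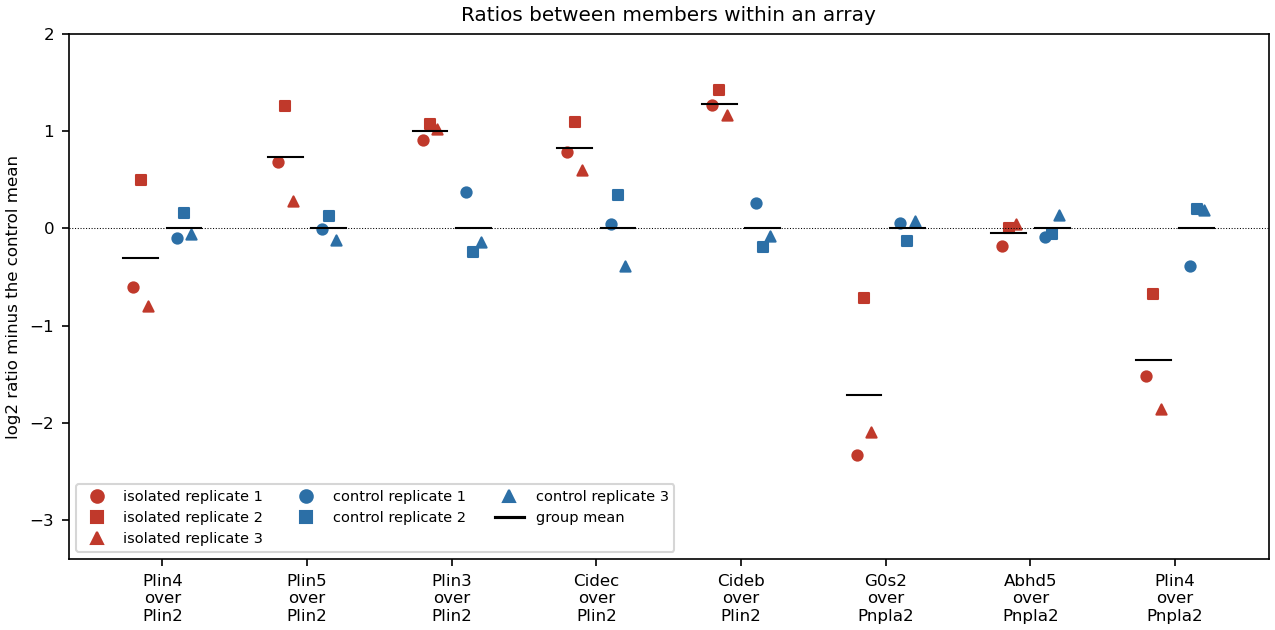
Log2 ratios between members on each array, drawn relative to the control mean of each ratio, with isolated arrays in red left of control arrays in blue and black lines for group means. The G0s2 to Pnpla2 ratio is lower on all 3 isolated arrays, the Abhd5 to Pnpla2 ratio overlaps, and isolated replicate 2 (square) is the highest isolated array in 7 of the 8 ratios.

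Lists of other genes of droplet turnover held few calls. Of 66 tested genes in 3 lists, 1 was called lower and 0 higher by limma, against 0.847% and 0.901% of all 10986 genes tested by their brightest probe set. At an unadjusted p under 0.05, 8 were lower and 3 higher, and 4.4% of all genes were lower and 7.94% higher. Among 25 tested genes of droplet formation and coat, 0 were called and the median log2 change was 0.03, against 0.05 over all genes. In that list Acsl3, an acyl-CoA synthetase found on growing droplets, had the smallest p, with signals of 58.8, 124 and 90.7 in isolated livers, against 41.0, 61.0 and 52.1 in control livers (log2 change 0.76, limma adjusted p 0.183). Acsl3 was not called in the main fit, but was called higher without isolated replicate 1 (log2 change 1.04, limma adjusted p 0.0313). Lpcat1, which makes phosphatidylcholine, was not called (log2 change -0.60, limma adjusted p 0.313).

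Among 18 tested genes of other lipases and triglyceride hydrolases, 0 were called and the median log2 change was -0.02. Nceh1, a neutral cholesterol ester hydrolase, had signals of 179, 198 and 204 in isolated livers, against 218, 303 and 327 in control livers (log2 change -0.52, limma adjusted p 0.220). Its other probe sets were not called either, with log2 changes of -0.59 (1435134_at, limma adjusted p 0.195) and -1.33 (1435135_at, 0.146). On 1435135_at the signals were 9.86, 35.7 and 70.8 in isolated livers, against 102, 80.0 and 58.9 in control livers, which overlap. This probe set was called lower without isolated replicate 3 (log2 change -1.93, limma adjusted p 0.0124) and with array weights (-1.89, 0.0238). Without isolated replicate 1 its log2 change was -0.62 (limma adjusted p 0.432). Without isolated replicates 2 and 3 it was -2.76, which rests on 1 isolated array in a fit added after the data were seen. Ces1d, a carboxylesterase that hydrolyses triglyceride in hepatocytes, was not called either (log2 change -0.33, limma adjusted p 0.275). At an unadjusted p under 0.05, 3 genes of this list were lower and 0 higher, and 2 were lower and 2 higher in the droplet formation list.

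Of 23 tested genes of the hormonal control of lipolysis, 1 was called lower and 0 higher, with a median log2 change of -0.005; at an unadjusted p under 0.05, 3 were lower and 1 higher. The call was Ppara, which encodes the fatty acid receptor PPARalpha. On 1439675_at it had signals of 839, 749 and 1167 in isolated livers, against 1411, 1396 and 1768 in control livers, with no overlap. The log2 change was -0.75 ± 0.17 (SE), with a limma adjusted p of 0.0220. This call was lost without control replicate 3 (limma adjusted p 0.126), isolated replicate 1 (0.0593) or isolated replicate 2 (0.0659), with no filter (0.0931) and without the intensity trend (0.264). Its probe set 1449051_at was called too (log2 change -0.95, limma adjusted p 0.00168), and kept that call in the same settings (0.00347 to 0.0195) except without the intensity trend (0.15). Its probe set 1457721_at was not called (-0.47, 0.247).

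**Figure D4:**
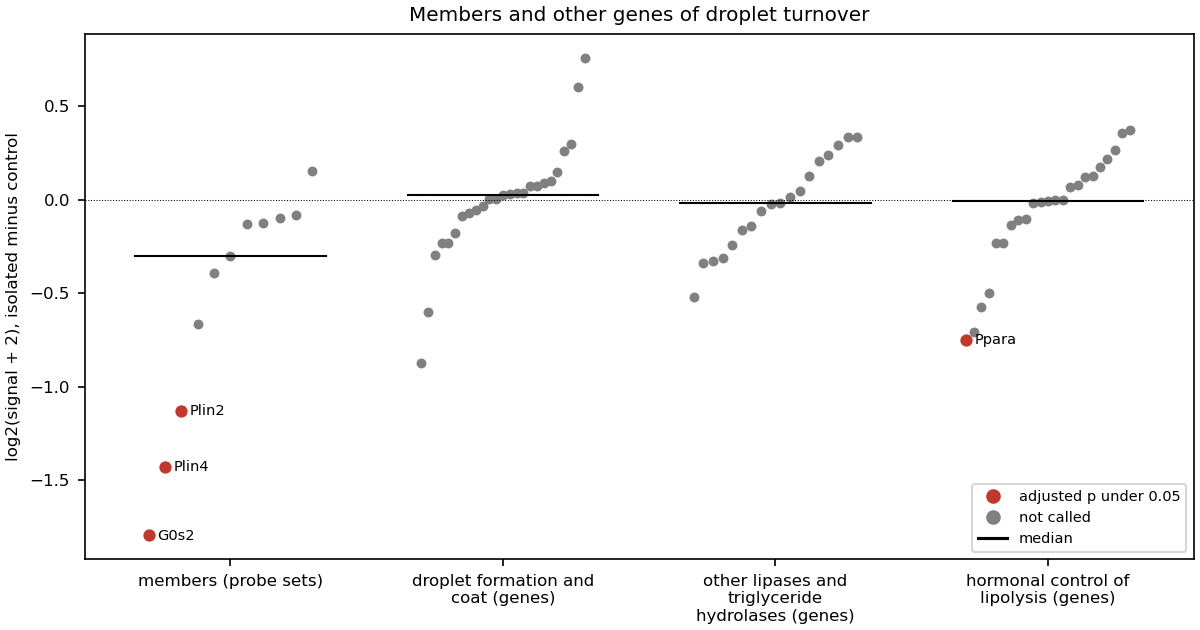
Difference of group means of log2(signal + 2), isolated minus control, for the 11 tested member probe sets and for the tested genes of 3 lists (25, 18 and 23 genes), each sorted by value, with black lines for medians and red for an adjusted p under 0.05. The red points are G0s2, Plin4 and Plin2 among the members and Ppara among the listed genes.

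The genes whose log2 values followed each called member most closely were sought among all genes by Pearson correlation over the 6 arrays. These correlations describe 6 points that hold the difference between the groups, and carry no test. For G0s2 they were Nxpe2 (r = 0.990), Trib1 (0.985) and Nr1i2 (0.971). For Plin4 they were Ten1 (0.997), Nr1i2 (0.992) and Acot1 (0.991), and for Plin2 Lsm7 (0.996), Dpp9 (0.995) and Rab9 (0.994). Of these 8 genes, Acot1, an acyl-CoA thioesterase, was itself called (log2 change -1.79, limma adjusted p 2.73e-05).

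Hepatocyte markers were bright on every array, with summed signals of 67751 to 76147 in isolated livers and 74783 to 79152 in control livers for the 8 of 10 listed genes that were measured. Of 43 tested genes on 7 marker lists, 0 were called by limma, with 3 higher and 3 lower at an unadjusted p under 0.05, against the 7.94% higher and 4.4% lower over all genes. Several members are also made by fat cells, and some fat markers were brighter on isolated replicates 2 and 3. Of 14 listed fat markers, 11 were measured, the member Cidec among them, and their summed signals were 332 to 645 in isolated livers and 276 to 379 in control livers. Fabp4 made up the largest part of that sum on every array. Adipoq, Retn and Aoc3 were below the filter and not tested. Adipoq read 3.78, 59.5 and 54.8 in isolated livers, against 4.38, 8.48 and 15.6 in control livers, and Retn read 2.65, 19.96 and 42.2 in isolated livers, against 2.39, 2.78 and 3.88 in control livers. Fabp4 read 203, 300 and 404 in isolated livers, against 117, 202 and 157 in control livers (limma adjusted p 0.0578). Aoc3 read 0.706, 17.6 and 12.5 in isolated livers, against 6.73, 2.50 and 2.32 in control livers.

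Of the other fat markers, Lipe had a log2 change of -0.16 and Pparg of -0.70 (limma adjusted p 0.891 and 0.568), and Slc2a4, Acvr1c, Lep and Ucp1 were also below the filter, with overlapping groups. Lep was at most 3.08 and Ucp1 at most 2.73 in isolated livers, against at most 3.30 and 1.97 in control livers. With isolated replicates 2 and 3 left out, 1 isolated array remained, and its spread was taken from the controls. The log2 changes in that fit were -2.44 for G0s2, -1.02 for Plin2 and -1.63 for Plin4. That fit was added after the data were seen.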

How the data were processed

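The authors deposited linear intensity values made with MAS5, per the submitters' processing notes; its scaling target and detection calls, and a genome build, are not stated there. From the deposited table, 64 control probe sets were set apart. A pseudocount of 2 was added, log2 taken, and the upper 50% of 45037 probe sets by mean tested (floor 4.32 on the log2 scale), with limma 3.58.1 in R 4.3.3, eBayes with an intensity trend, and Benjamini-Hochberg adjustment over all 22519. The variance trend carried 16.1 degrees of freedom and the arrays 4. Genes were named from the platform annotation, updated by gene identifier to GRCm38.p6 symbols (0 changed); 34958 probe sets had 1 symbol, 932 several, none of them holding a member, and 9211 none. A gene of the lists or of a ratio was represented by its brightest tested probe set. All members were named; from each list, the called genes or otherwise those with the smallest 2 p-values were named, and for each called member the 3 genes of highest correlation. Members and lists were chosen with earlier results of these data known. On simulated data for isolated against control (22519 probe sets, 200 changed), the procedure recovered 64% of changes of 1 log2 unit and 93% of changes of 2, with 9 false calls among 166, and called 0 when no probe set was changed; its noise followed the variance model of the fit. The number of arrays limits the precision. Alternatives covered the pseudocount, filter, normalization, variance model, array weights, replicate block and each array left out, with the tested set held fixed for the latter.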

Additional observations from a re-analysis of the deposited data

How the results depend on the processing

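Of the 3 member calls, 0 stood without the intensity trend (limma; 4 member probe sets lower at an unadjusted p under 0.05), and 2 to 4 member probe sets were called lower in the other alternatives, with 0 called higher in any. With each array left out in turn the count of lower calls was 2 to 3. With the replicate block it was 4, Plin5 1424937_at being added, and over all probe sets 265 were higher and 248 lower, against 174 and 193 without it. Deviations of same-numbered arrays from their group means had correlations of 0.008, 0.044 and 0.005. Among the controls, isolated replicate 3 correlated best with replicate 1 (0.037). Deviations from a mean of 3 arrays depend on each other, so these values cannot show whether the numbers pair the samples. Over all probe sets the counts were 81 higher and 101 lower with no filter, 15 and 16 without the intensity trend, 264 higher with the upper 30% tested (a setting in which Plin4 and Cidec were not tested) and 88 higher without isolated replicates 2 and 3. Leaving out each array gave 97 to 187 higher and 82 to 243 lower, with 97 higher without isolated replicate 3, 115 higher without control replicate 2 and 82 lower without control replicate 3. Median centring gave 258 higher and 183 lower, or 58.5% higher against 47.4%, and quantile normalization 148 and 242, or 37.9%. Of the other pathway genes by their brightest probe set, 0 were called lower with no filter and without the trend (7 and 5 at an unadjusted p under 0.05), and 0 to 1 lower and 0 to 1 higher with each array left out; Ppara 1449051_at, not its brightest, kept its call with no filter. With each array left out, the log2 change of Pnpla2 1428143_a_at ran from -0.19 to 0.015, and was above 0 without isolated replicate 2. That of Abhd5 1417565_at ran from -0.22 to 0.049. It was above 0 without isolated replicate 1 (0.049) and without control replicate 3 (0.018). The difference in the Abhd5 to Pnpla2 log2 ratio ran from -0.090 to 0.025 (without isolated replicate 1), and was 0.024 without control replicate 3. Among other members not called, the same fits gave -0.25 to -0.0051 for Plin3, 0.078 to 0.26 for Cideb, -0.44 to -0.11 for Cidec (the last without control replicate 2) and -0.28 to -0.035 for Abhd5 1417566_at. The Plin4 to Plin2 log2 ratio differed by 0.027 with a pseudocount of 16. The cause was not tested. Signals near the floor limit what can be said of Cidec and Plin4.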
